A study of Mus musculus with 59 samples.

Results

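The results concern 34 activity-dependent immediate early genes, measured as poly(A) RNA in the cortex and hippocampus of male mice. They were chosen by symbol, and all 34 were found among the 57180 gene rows of the deposited count table. All 34 also passed the filter on low counts in both tissues. Immediate early genes are transcribed within minutes of a stimulus without new protein synthesis. In neurons, calcium entry through receptors and channels activates kinases that phosphorylate CREB and the partners of serum response factor, and these switch on promoters of the group. Many products are transcription factors that act on a later wave of genes, others are phosphatases and kinases that end the signal, and a few act at the synapse. In cortex and hippocampus, Fos, Arc and Egr1 are widely used as marks of recently active neurons.

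By label the animals were of 4 genotypes. Wild-type mice carried 2 intact copies of each gene, Slc25a1 het mice had lost 1 copy of Slc25a1, Mrpl40 het mice 1 copy of Mrpl40, and double het mice 1 copy of each. Slc25a1 exports citrate from mitochondria, Mrpl40 belongs to the mitochondrial ribosome, and both genes lie in the mouse region that corresponds to human 22q11.2. In that order cortex had 9, 7, 7 and 7 libraries and hippocampus 8, 7, 7 and 7, taken from 30 mice (both tissues in 29). The labels used here name no age, strain, time of day, handling before dissection or stimulus.

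Levels are given as CPM, a gene's count scaled to the same effective total in every library. Library totals ranged from 21443017 to 32120906 counts. Slc25a1 stood at 2 separate levels, 10.8 to 13.1 CPM in 24 libraries and 21.0 to 27.3 CPM in 35. In 12 libraries of 6 animals (2 labelled wild type, 2 Slc25a1 het and 2 double het) the level went against the label, so every genotype named here is the labelled one. Mrpl40 varied by 1.45-fold over all cortex libraries, so its RNA did not check the label. The markers Cux2, Rorb and Prox1 went with the tissue labels. Cux2 of upper-layer cortical neurons ranged from 151 to 312 CPM in cortex and 19.7 to 59.7 CPM in hippocampus. Rorb of cortex ranged from 83.1 to 131 and 26.3 to 45.4 CPM, and Prox1 of the dentate gyrus from 10.7 to 15.3 and 141 to 309 CPM. Fezf2, also a cortical marker, overlapped (25.1 to 54.9 and 16.2 to 41.8 CPM). Wfs1, listed as a hippocampal marker, was not higher in hippocampus by median (81.1 CPM in cortex and 74.5 CPM in hippocampus). Of 4 hippocampus libraries that stood apart in markers, the one labelled Slc25a1 het, replicate 3, had a summed level of cerebellar and thalamic markers of 815 CPM, against 85.2 to 168 CPM in the other hippocampus libraries. The other 3 were replicate 8 of wild type, 5 of Mrpl40 het and 6 of double het. In tissue pieces, fewer cells of a type and less RNA per cell cannot be told apart.

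Promoter sequences of 4 members are printed because CREB and serum response factor act through short DNA words near the start site. Whether these words bear on how the genes vary together, as described below, was not tested. RefSeq (assembly GRCm38.p6) held 35 promoter windows for 25 of the 34 members, so some genes had more than 1 window. Egr1, Egr3, Klf10, Ier2, Dusp4, Sik1, Trib1, Arc and Nptx2 had no window and were not searched. In the 250 bases before the start site, both strands were searched for the full cyclic AMP response element TGACGTCA, its shorter form TGACG (which lies inside the full one), the CArG box bound by serum response factor, the TATA box word TATAAA and the EGR site GCGNGGGCG. The windows of Fos and Dusp1 were chosen by rule among the members described library by library, and those of Btg2 and Dusp5 after values were seen. Capitals mark the shorter response element and TATAAA in Fos, TGACGTCA in Dusp1 and Btg2, and 2 adjacent CArG boxes in Dusp5. All are written 5′ to 3′ on the strand of the gene.
Fos, chr12:85473640-85473889, plus strand: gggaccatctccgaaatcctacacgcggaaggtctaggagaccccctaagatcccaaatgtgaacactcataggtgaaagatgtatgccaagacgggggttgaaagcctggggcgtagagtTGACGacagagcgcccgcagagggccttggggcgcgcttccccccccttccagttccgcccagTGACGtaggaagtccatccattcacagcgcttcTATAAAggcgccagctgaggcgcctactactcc
Dusp1, chr17:26508473-26508722, minus strand: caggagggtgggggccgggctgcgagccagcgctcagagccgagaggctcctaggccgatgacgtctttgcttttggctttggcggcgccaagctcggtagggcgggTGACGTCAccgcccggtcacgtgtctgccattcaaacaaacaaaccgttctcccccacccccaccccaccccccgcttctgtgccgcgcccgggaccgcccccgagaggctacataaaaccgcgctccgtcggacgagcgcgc
Btg2, chr1:134079156-134079405, minus strand: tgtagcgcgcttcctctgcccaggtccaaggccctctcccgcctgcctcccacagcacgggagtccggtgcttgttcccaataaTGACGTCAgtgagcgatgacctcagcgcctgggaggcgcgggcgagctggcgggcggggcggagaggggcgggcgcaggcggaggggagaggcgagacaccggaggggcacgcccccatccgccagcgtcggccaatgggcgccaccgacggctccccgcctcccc
Dusp5, chr19:53528895-53529144, plus strand: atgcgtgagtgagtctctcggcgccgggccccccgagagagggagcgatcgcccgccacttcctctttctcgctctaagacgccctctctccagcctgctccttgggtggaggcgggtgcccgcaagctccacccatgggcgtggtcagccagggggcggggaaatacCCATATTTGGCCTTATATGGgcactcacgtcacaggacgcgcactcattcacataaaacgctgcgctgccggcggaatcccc

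In the Fos window the shorter element began 129 and 66 bases before the start and TATAAA began 33 bases before it. The full element began 143 bases before the start of Dusp1 and 166 bases before that of Btg2, and the CArG boxes of Dusp5 began 82 and 72 bases before its start. The full element was in 2 of the 35 members' windows (5.71%), against 1.55% of the 32817 windows of all genes. For TGACG the shares were 48.6% and 17.7%, with a match for 15 of 25 members, among them Fos, Junb, Egr4, Npas4, Nr4a1, Klf2 and Bdnf. CArG boxes were in 14.3% and 1.47% of windows, TATAAA in 14.3% and 12.4%, and the EGR site in 22.9% and 4.70%. The 5 members' windows with a CArG box belonged to only 2 of the 25 members searched (Egr2 and Dusp5), so that share counts windows of the same gene repeatedly. These matches are descriptions of the sequence and not of binding.

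Cortex and hippocampus of the same animal differed in most of the genes, and mostly in one direction. In hippocampus 27 of the 34 were lower than in cortex, 5 were higher, and 2 (Nr4a2 and Ptgs2) did not pass the test (edgeR's quasi-likelihood test with the animal as a block, 29 animals, Benjamini-Hochberg adjusted p under 0.05 over 21354 genes). The tissues are distinct enough that 77.4% of all genes tested were called, 39.7% higher and 37.7% lower. Against that background the count of 32 called says little about the members, and the 27 of 34 that were lower compare with 37.7% of all genes. The median log2 fold change of the members was -1.31, against 0.012 over all genes tested. In 21 members hippocampus was lower in each of the 29 animals, and in 15 of these no library of one tissue reached into the range of the other. How many of all genes do the same was not counted, so these counts do not set the members apart.

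**Figure D1:**
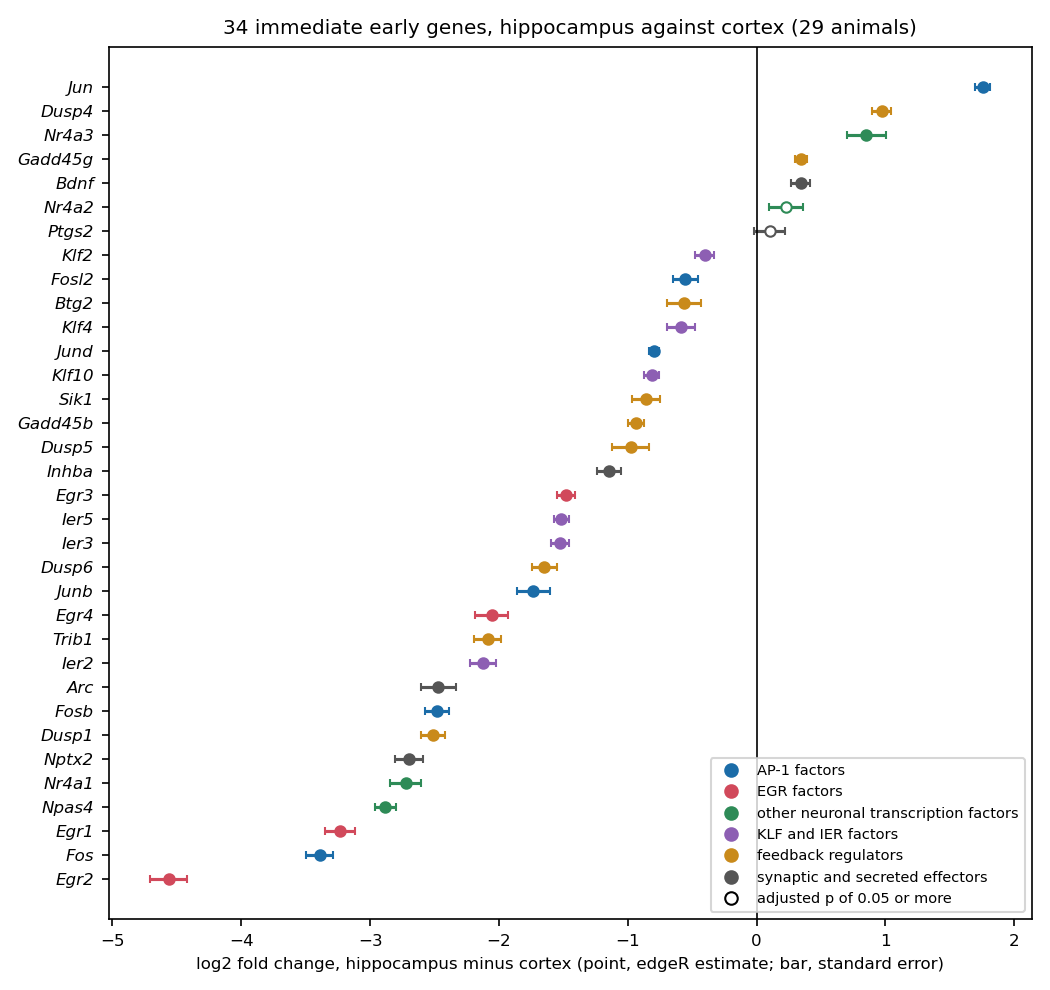
Log2 fold change of each of the 34 genes in hippocampus relative to cortex (horizontal axis), ordered by size, with points coloured by role and bars giving the standard error. Filled points passed the test. Egr2 at -4.56 and Jun at 1.76 are the ends of the range, and 27 filled points lie left of 0.

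The AP-1 factors are Fos and Jun proteins that bind DNA as pairs. Fos ranged from 20.5 to 139 CPM over the 30 cortex libraries, with a median of 68.0, and from 2.91 to 13.4 CPM over the 29 hippocampus libraries, with a median of 6.46. The 2 ranges did not overlap, and the log2 fold change was -3.39 ± 0.11 (SE, adjusted p = 9.75e-23). Junb had a cortical range of 29.1 to 195 CPM (median 104) and a hippocampal range of 19.7 to 42.2 CPM (median 28.0), which overlapped. It was lower in hippocampus in 29 of 29 animals, with a log2 fold change of -1.73 ± 0.13 (adjusted p = 3.41e-13). Fosb (-2.48), Jund (-0.80) and Fosl2 (-0.55) were lower too. Jun went the other way. It ranged from 38.3 to 78.6 CPM in cortex and from 125 to 223 CPM in hippocampus, without overlap, and was higher in hippocampus in 29 of 29 animals (1.76 ± 0.06, adjusted p = 1.95e-22).

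All 4 EGR zinc finger factors were lower in hippocampus. Egr1 lay between 335 and 1030 CPM in cortex (median 747) and between 54.1 and 131 CPM in hippocampus (median 69.6). Egr4 lay between 16.9 and 71.4 CPM in cortex (median 41.3) and between 5.65 and 13.0 CPM in hippocampus (median 8.88). For both genes the ranges were apart in every library, with log2 fold changes of -3.23 ± 0.11 for Egr1 and -2.06 ± 0.13 for Egr4. Egr2 had the largest difference of the 34 genes, at -4.56 ± 0.14, from a cortical median of 35.5 CPM to a hippocampal median of 1.29 CPM. Egr3, the least changed of the family, had -1.48 ± 0.07.

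The other neuronal transcription factors were split. Npas4 is a neuronal factor induced by calcium entry, and it ranged from 17.9 to 95.6 CPM in cortex (median 51.2) and from 4.69 to 13.2 CPM in hippocampus (median 7.41). Nr4a1, an orphan nuclear receptor, ranged from 87.3 to 444 CPM in cortex (median 269) and from 28.1 to 68.7 CPM in hippocampus (median 35.2). Neither range overlapped, and the log2 fold changes were -2.88 ± 0.08 for Npas4 and -2.72 ± 0.12 for Nr4a1. Of the 2 related receptors, Nr4a3 was higher in hippocampus (0.85 ± 0.15, adjusted p = 7.6e-06), in 25 of 29 animals. Nr4a2 was higher in 14 animals and lower in 15, with a log2 fold change of 0.23 ± 0.14 (adjusted p = 0.123).

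The 6 KLF and IER genes were all lower in hippocampus, from Ier2 at -2.12 through Ier3 (-1.53), Ier5 (-1.52), Klf10 (-0.81) and Klf4 (-0.59) to Klf2 at -0.40. Klf2, a factor also known from endothelial cells, was a low gene in both tissues, with 3.19 to 8.43 CPM in cortex (median 5.92) and 2.27 to 5.54 CPM in hippocampus (median 4.13). Its ranges overlapped and 23 of 29 animals had the lower level in hippocampus (-0.40 ± 0.07, adjusted p = 4.16e-06). The 12 endothelial and pericyte markers had a median log2 fold change of 0.00, with 3 called higher and 1 lower.

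Among the 9 feedback regulators 7 were lower and 2 higher. Dusp1 encodes a nuclear phosphatase that inactivates MAP kinases, and it ranged from 19.3 to 121 CPM in cortex (median 56.8) and from 6.45 to 15.8 CPM in hippocampus (median 9.69), without overlap. Its log2 fold change was -2.51 ± 0.10 (adjusted p = 1.57e-20). Trib1 (-2.09), Dusp6 (-1.65), Dusp5 (-0.98), Gadd45b (-0.94), Sik1 (-0.86) and Btg2 (-0.56) followed. Dusp4, a close relative of Dusp1, was higher in hippocampus in 29 of 29 animals (0.97 ± 0.08, adjusted p = 5.82e-13). Gadd45g was higher in 27 of 29 (0.34 ± 0.05, adjusted p = 2.94e-08).

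Of the synaptic and secreted effectors, Arc, which acts in the removal of AMPA receptors from synapses, ranged from 85.3 to 849 CPM in cortex (median 522) and from 48.9 to 149 CPM in hippocampus (median 75.1). The ranges overlapped only through the lowest cortex libraries, and Arc was lower in hippocampus in 29 of 29 animals (-2.47 ± 0.14). Nptx2, a pentraxin that clusters AMPA receptors, ranged from 51.9 to 118 CPM in cortex (median 82.4) and from 6.66 to 23.0 CPM in hippocampus (median 12.2), without overlap (-2.70 ± 0.11). Inhba, a subunit of activin, was lower at -1.15 ± 0.09. Bdnf, the neurotrophin, differed in direction. It ranged from 27.7 to 73.3 CPM in cortex (median 48.4) and from 47.1 to 76.6 CPM in hippocampus (median 60.4), and was higher in hippocampus in 24 of 29 animals (0.34 ± 0.07, adjusted p = 1.24e-04). Ptgs2, which encodes an inducible cyclooxygenase, had 0.10 ± 0.12 (adjusted p = 0.443).

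Levels of different genes were compared per kilobase of exon (GENCODE vM21 exon lengths, available for 34 of 34 members). In cortex Arc and Egr1 led with means of 160.1 and 159.9 CPM per kilobase, ahead of Nr4a1 (79.5), Egr3 (75.8) and Junb (45.5). In hippocampus Jun led with 53.1 CPM per kilobase, ahead of Egr3 (26.4), Arc (26.4), Egr1 (16.8) and Jund (14.8). Fos was in place 8 of 34 in cortex and in place 24 in hippocampus. Arc and Egr1 in cortex differed by less than the spread between libraries, and other neighbours in these orders were not compared.

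**Figure D2:**
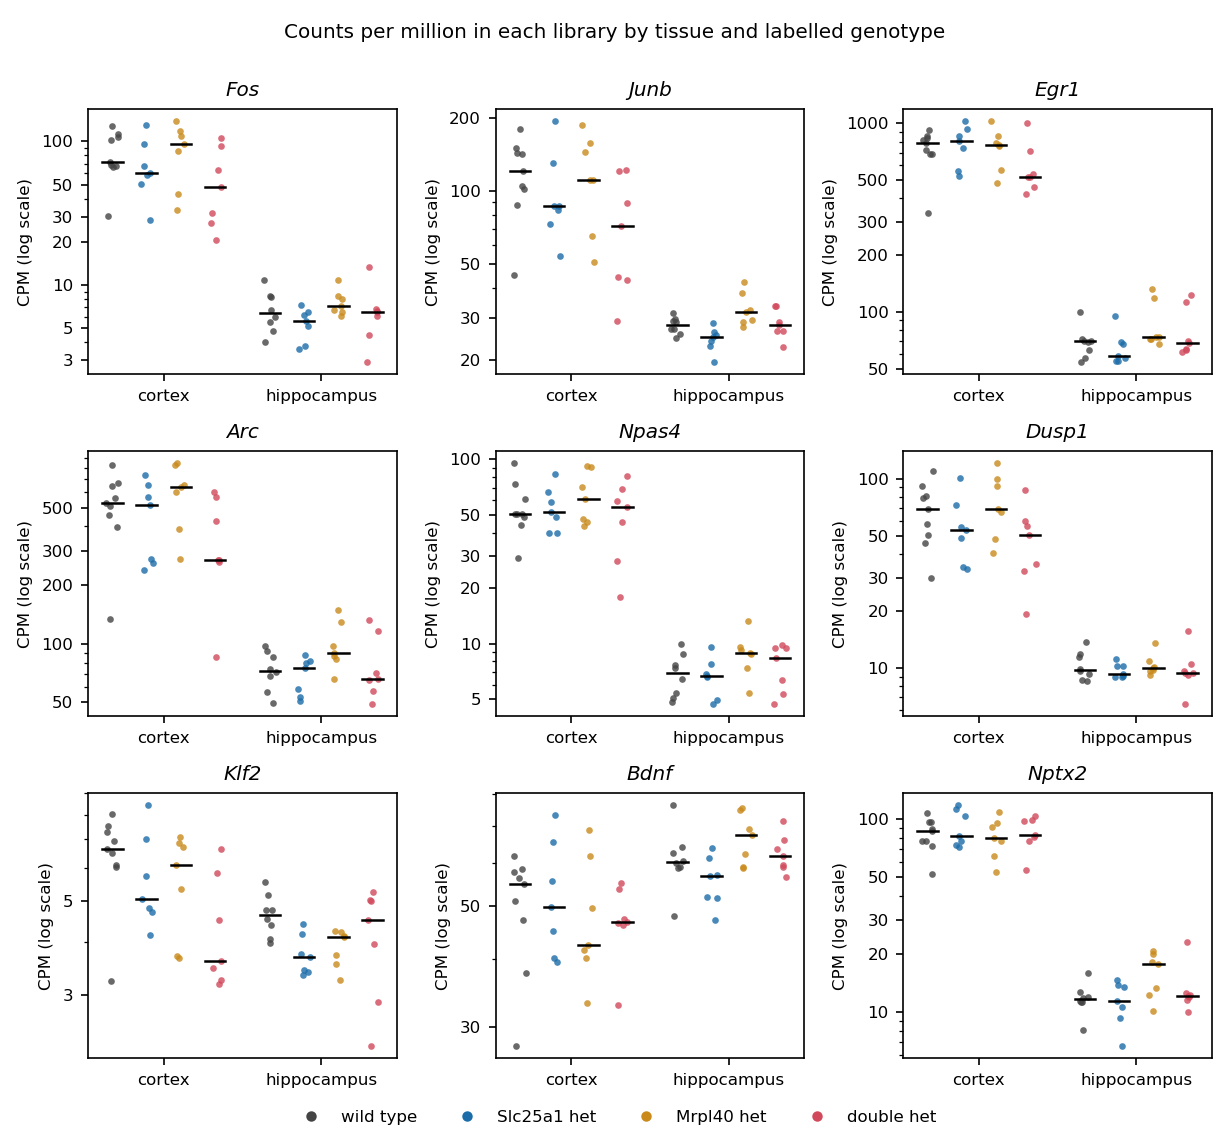
CPM (vertical axes, log scale) of 9 members in each library, by tissue and labelled genotype. Points are libraries and black lines are group medians. Fos, Egr1, Npas4, Dusp1 and Nptx2 form separate bands in the 2 tissues, Bdnf is higher in hippocampus, and the cortex points spread over a wider range than the hippocampus points for Fos, Junb and Dusp1.

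Genes outside the 34 that also respond to activity, a list of 35 with 33 found in the table, moved between the tissues in the same predominant direction. Of these, 22 were lower in hippocampus and 5 higher, with a median log2 fold change of -0.45. Over all genes tested, 37.7% were called lower and 39.7% higher, a background that holds for each list here. Rgs2, a regulator of G protein signalling, had -1.02 ± 0.03, the prohormone convertase Pcsk1 -2.37 ± 0.08, the CREB-family gene Crem -0.72 ± 0.03 and the cell cycle inhibitor Cdkn1a -2.30 ± 0.08 (adjusted p of 8.35e-22 or less for each of the 4). The 35 genes found from the signalling that leads to them, which includes kinases, channels, CREB and MEF2 factors, divided into 22 higher and 11 lower (median 0.13). Camkk2 (-1.28 ± 0.02), Mef2c (-2.24 ± 0.05) and the kinase gene Rps6ka3 (-0.82 ± 0.03) were lower in hippocampus, and Camk2b was higher (1.19 ± 0.03). Markers of cell types moved with tissue as well. All 6 interneuron markers were lower in hippocampus (median -1.07), 9 of 12 oligodendrocyte markers were higher (median 0.22), and cortical and hippocampal excitatory markers had medians of -2.21 and 3.38. Their part in the differences of the immediate early genes was not tested. Without the animals of the 4 hippocampus libraries that stood apart, 32 members were again called, 27 lower and 5 higher.

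No member differed between labelled genotypes at the threshold, in either tissue. In cortex 0 of 34 were called in Slc25a1 het against wild type (0% of all genes called), Mrpl40 het against wild type (0.0294%), double het against wild type (0.0686%), double het against Slc25a1 het (0.0588%), double het against Mrpl40 het (0.0049%) and the interaction, which is double het minus both single differences (0%). In hippocampus the same 6 comparisons called 0 of 34, with 0%, 0.00496%, 0.00992%, 0%, 0% and 0% of all genes called. DESeq2 also called 0 members in each of the 12. Between 0 and 6 members had an unadjusted p under 0.05 in a comparison, by edgeR and by DESeq2, and the lowest adjusted p was 0.238 in edgeR and 0.122 in DESeq2. Over all genes, edgeR gave an unadjusted p under 0.05 for 646 to 2226 genes in a comparison (both ends in cortex, of 20394 tested). The comparisons with wild type share the wild-type libraries, and those of double het share the double het libraries.

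In cortex labelled double het the fitted values nevertheless lay mostly below wild type. They were below 0 for 31 of 34 members, with a median log2 fold change of -0.25, against -0.0034 over all genes tested. The same values were 31 below and -0.23 against Slc25a1 het, and 30 below and -0.34 against Mrpl40 het. Against wild type the single genotypes had medians of -0.03 (Slc25a1 het, 20 below) and 0.04 (Mrpl40 het, 21 above). The sign for Slc25a1 het was not stable, with 0.0052 without the 6 animals and 0.0094 with the replicate number as a block (17 above and 17 below in both). Since members vary together between libraries, as described below, these counts do not stand for 34 separate observations. Without the 6 animals whose Slc25a1 level went against the label, the median of double het against wild type was -0.20 with 31 below. In that fit 0 members had an unadjusted p under 0.05 in edgeR, where 1395 of 20350 genes did. With all animals 4 of 34 members did, a share similar to that of all genes (2226 of 20394).

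Klf2 had the lowest p of the members in that comparison. It ranged from 3.25 to 8.01 CPM in 9 wild-type cortex libraries (median 6.64) and from 3.19 to 6.64 CPM in 7 double het libraries (median 3.61). The groups overlapped, and the log2 fold change was -0.58 ± 0.19 (edgeR, adjusted p = 0.238). Junb was between 45.3 and 181 CPM in wild type (median 121) and between 29.1 and 123 CPM in double het (median 71.5), with -0.70 ± 0.33 (edgeR, adjusted p = 0.435). Egr4 had medians of 46.0 and 24.5 CPM and -0.60 ± 0.28 (edgeR, adjusted p = 0.433).

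Fos ranged from 30.3 to 129 CPM in wild type (median 72.0) and from 20.5 to 105 CPM in double het (median 48.3). Its difference was -0.60 ± 0.36, and the libraries covered 4.25-fold in wild type and 5.13-fold in double het. The lowest wild-type library was replicate 3, and the other wild-type libraries ranged from 66.6 to 129 CPM. The 2 groups overlapped with and without it. For Arc the ranges were 134 to 827 CPM (median 525) and 85.3 to 605 CPM (median 268), and the difference was -0.57 ± 0.35. Nr4a1 had -0.48 ± 0.28, Dusp1 -0.49 ± 0.30 and Egr1 -0.31 ± 0.20. Smaller values were found for Npas4 (medians 50.4 and 55.0 CPM, -0.14 ± 0.26), Bdnf (54.9 and 46.8 CPM, -0.10 ± 0.17) and Nptx2 (86.7 and 82.9 CPM, 0.02 ± 0.16). The sign for Nptx2 turned to -0.04 without the 6 animals. None of these passed the test. By role, all 6 AP-1 factors, 3 of 4 EGR factors, all 4 other neuronal factors, all 6 KLF and IER genes, all 9 feedback regulators and 3 of 5 effectors had fitted values below 0.

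**Figure D3:**
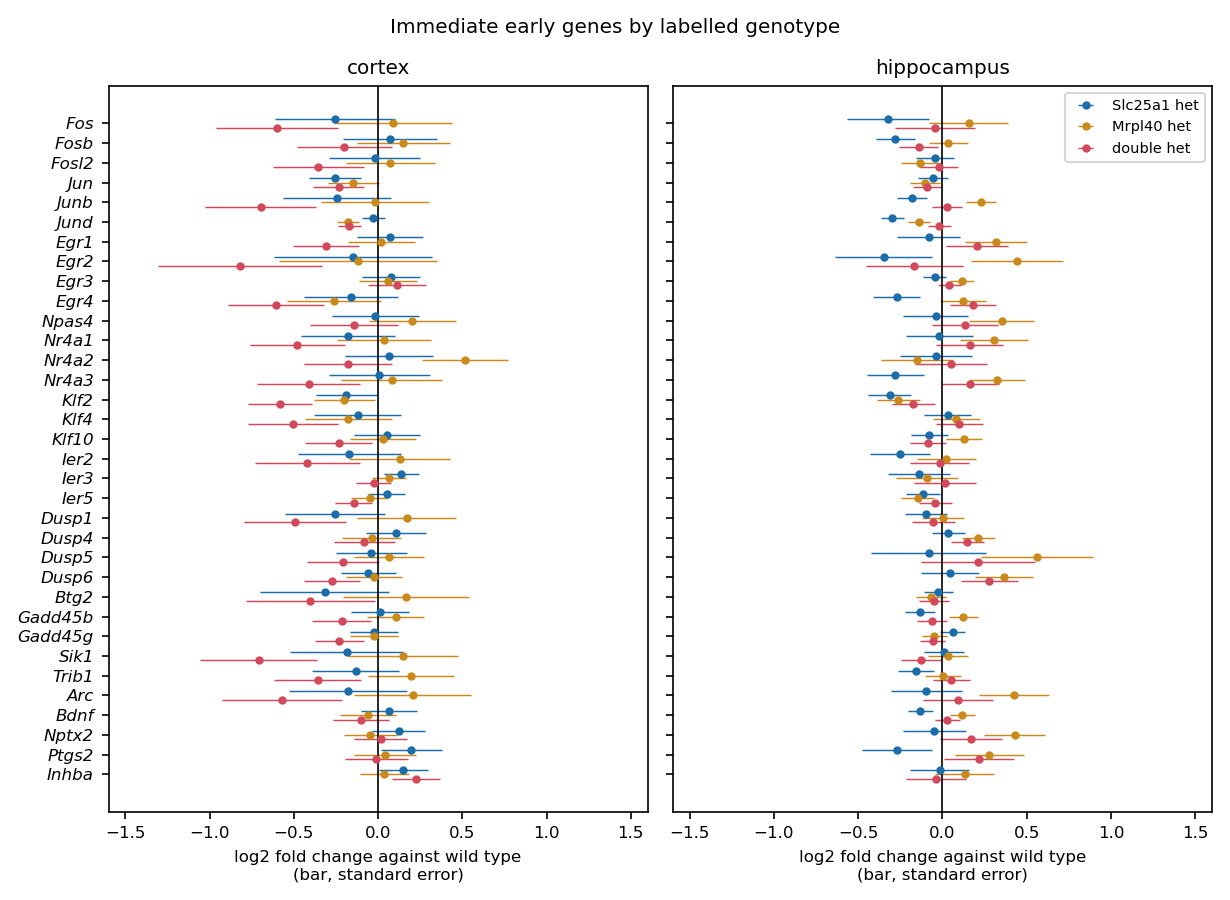
Log2 fold change of each member in the 3 heterozygous genotypes relative to wild type (horizontal axes), in cortex (left) and hippocampus (right), with points coloured by genotype and bars giving the standard error. The double het points lie left of 0 for 31 of 34 genes in cortex, from -0.82 for Egr2 to 0.22 for Inhba, and no point passed the test.

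A single wild-type library weighs on these values. The mean of the members (log2 CPM minus each gene's mean over the libraries of the tissue, averaged over the 34 genes) was -0.93 in cortex wild type replicate 3, and 0.04 to 0.51 in the other 8 wild-type cortex libraries. In Slc25a1 het cortex it ranged from -0.51 to 0.67 (median -0.01), in Mrpl40 het from -0.55 to 0.52 (median 0.25), and in double het from -0.75 to 0.30 (median -0.36). The groups overlapped with and without that library. Replicate 3 had the lowest value of all 30 cortex libraries for 15 members, among them Egr1, Egr2, Sik1, Bdnf and Nptx2. Double het replicate 4 had the lowest for 10, among them Fos, Junb, Nr4a1, Dusp1 and Arc. The hippocampus of that double het animal was the lowest of 29 for 6 members, among them Fos, Npas4, Dusp1 and Arc, and the highest for 1 (Ptgs2). The highest cortex library for 13 members was Slc25a1 het replicate 7. The hippocampus of that Slc25a1 het animal was not high, with a mean of the members of -0.07, and was the lowest for Jund and Nr4a3. Summed marker levels of astrocytes, microglia, oligodendrocytes, endothelial cells, interneurons and excitatory neurons in replicate 3 were inside the range of the other cortex libraries. Without it the double het median was -0.34 with 32 below. Of the 34 members 11 had an unadjusted p under 0.05 in edgeR, where 2405 of 20381 genes did, and 0 were called. The median of Mrpl40 het turned from 0.04 to -0.04. That of Slc25a1 het moved from -0.03 with 20 below to -0.11 with 26 below.

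Marker genes of other cells also shifted in cortex labelled double het. Of 12 markers each, all 12 of astrocytes (median -0.08), 11 of microglia (-0.12) and 11 of endothelial cells and pericytes (-0.05) were below wild type and 11 of oligodendrocytes were above (0.16), with 1 passing the test (C1qa, -0.31, adjusted p = 0.0262). Summed microglial markers ranged from 384 to 474 CPM in wild type and from 358 to 412 CPM in double het. Of 10 choroid plexus markers 6 could be tested, with a median of 0.36, 4 above wild type and 5 at an unadjusted p under 0.05 in edgeR (2226 of 20394 over all genes). Their sum ranged from 178 to 227 CPM in wild type and from 212 to 242 CPM in double het, and Ttr, their defining gene, was at 0.0997 to 8.02 CPM over all cortex libraries. The part of these shifts in the values of the immediate early genes was not tested.

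In hippocampus the fitted values had another order of genotypes than in cortex. Medians of the 2 single genotypes lay farther from 0 there than in cortex, and that of double het lay closer. For Slc25a1 het this turned without cortex wild type replicate 3, where its cortical median was -0.11. The median over the members was -0.09 in Slc25a1 het (29 of 34 below wild type), 0.12 in Mrpl40 het (25 above) and 0.02 in double het (18 above). Without the 6 animals that of double het turned to -0.03. Against Slc25a1 het the median of double het was 0.16 with 28 above, and 0.07 without the 6 animals, and against Mrpl40 het it was -0.08 with 23 below. Jund had the lowest p of the 34, in Slc25a1 het. It ranged from 24.4 to 29.9 CPM in 8 wild-type libraries (median 25.9) and from 16.2 to 26.8 CPM in 7 Slc25a1 het libraries (median 21.5), which overlapped, with -0.30 ± 0.07 (edgeR, unadjusted p = 1.25e-04, adjusted p = 0.359). With the replicate number as a block it passed the edgeR test (-0.35, adjusted p = 0.0126). In other settings no member passed in this comparison. The lowest adjusted p of any member was 0.776 without the 6 animals and 0.171 without the 4 libraries that stood apart (edgeR), and 0.229 with DESeq2. The Slc25a1 het library with cerebellar markers had the lowest hippocampal value for 8 members, among them Junb, Egr4, Bdnf and Nptx2. Without the 4 libraries that stood apart in markers, the Slc25a1 het median was -0.06 with 25 below, a value over 1.5 times smaller. Cerebellar and thalamic markers had a median of 1.65 in Slc25a1 het. Of them 5 of 9 were at an unadjusted p under 0.05 in edgeR (1567 of 20162 over all genes) and 0 were called. The part of these markers in the members' values was not tested.

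For the other members described by library, wild-type hippocampus and the 3 heterozygous groups overlapped. Fos had medians of 6.35 CPM in wild type, 5.65 CPM with the Slc25a1 allele, 7.10 CPM with the Mrpl40 allele and 6.45 CPM with both. Those of Egr1 were 69.7, 58.6, 73.6 and 68.0 CPM, and those of Arc 72.8, 75.1, 89.3 and 65.6 CPM. Nptx2 had medians of 11.6, 11.4, 17.7 and 12.2 CPM in the same order, with 8.05 to 16.0 CPM in wild type and 10.1 to 20.6 CPM in Mrpl40 het.

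The difference between tissues in the genotype effect was tested directly, with the animal as a block. For double het it was above 0 (hippocampus minus cortex) for 32 of 34 members with a median of 0.28, and 0 were called (0.0234% of all genes). In edgeR 3 members were at an unadjusted p under 0.05, where 1074 of 21354 genes were. Egr4 had the lowest p, with 0.76 ± 0.32 (edgeR, adjusted p = 0.948). Without the 6 animals the median was 0.16 with 25 above. Without the animal of cortex wild type replicate 3 it was 0.41 with 0 called. In that edgeR fit 10 members were at an unadjusted p under 0.05, where 1116 of 21331 genes were, and the members vary together. For Slc25a1 het and Mrpl40 het 0 members were called (0% of all genes for each), with medians of -0.17 and 0.04. Without the animal of wild type replicate 3 these were -0.05 and 0.11, and without the animals of the 4 hippocampus libraries that of Mrpl40 het was 0.0022. Jund had the lowest p for Slc25a1 het, with -0.30 ± 0.08 (edgeR, adjusted p = 0.816). These 3 tests were not run with DESeq2.

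Among genes that passed the filter on low counts, the members had a higher median spread between libraries of one genotype than all genes, with the larger gap in cortex. The biological coefficient of variation, which edgeR estimates as the relative spread between libraries beyond counting noise, had a median of 0.322 over the members in cortex against 0.0893 over all 20394 genes tested. In cortex 27 of 34 members were above the 90th percentile of all genes (0.219), led by Egr2 (0.659), Btg2 (0.515), Fos (0.485) and Arc (0.473). Jund had the lowest value, at 0.0899. In hippocampus the members' median was 0.166 against 0.106, and 8 of 34 were above the 90th percentile (0.250), led by Dusp5 (0.434), Egr2 (0.343) and Fos (0.311). The comparison depended on the filter. With no filter on low counts the medians were 0.322 for the members and 0.270 for all 41503 genes in cortex, and in hippocampus the direction turned, with 0.163 for the members and 0.292 for all 41378 genes. Egr2 covered a 21.4-fold range over the cortex libraries, Btg2 10.1-fold, Arc 9.96-fold and Fos 6.79-fold. In hippocampus the range of Fos was 4.62-fold and that of Btg2 was 1.62-fold.

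In cortex the members rose and fell together from library to library. After the mean of each genotype was removed, the median Pearson r over the 561 pairs of members was 0.628 across 30 cortex libraries, 545 pairs were above 0 and 376 above 0.5, while pairs drawn from all tested genes had a median of -0.001. Pairs share the same libraries and are not independent. The highest correlations were of Fos with Junb (r = 0.981), Ier2 with Dusp1 (0.970) and Junb with Nr4a1 (0.969). Against the mean of the 33 others, Sik1, the kinase that restrains CREB coactivators, was highest (0.961), followed by Egr2 (0.950), Dusp6 (0.947) and Nr4a1 (0.942). Npas4 (0.305), Inhba (0.356), Nr4a2 (0.417) and Jun (0.473) were lowest, and Npas4 with Ier5 gave the lowest pair (-0.377). Without cortex wild type replicate 3 the median over pairs was 0.581, and without the 6 animals 0.680.

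In hippocampus the same measure was 0.118 over 29 libraries, with 366 of 561 pairs above 0 and 75 above 0.5. The highest pairs there were spread over several genes. Egr1 with Nr4a1 reached 0.950, Nr4a1 with Arc 0.873 and Egr1 with Arc 0.840. Fos was closest to Dusp1 (0.805), Nr4a3 to Ptgs2 (0.805) and Nptx2 to Inhba (0.795). Jun ran against several members (-0.706 with Dusp6, -0.658 with Egr1), and Ptgs2 against Ier5 (-0.732). Against the mean of the others, Arc (0.865), Nr4a1 (0.838) and Junb (0.807) were highest, and Jun (-0.478), Ptgs2 (-0.431) and Nr4a3 (-0.236) lowest. Without the 4 libraries that stood apart the median over pairs was 0.154. The difference between the tissues in this median was not tested. Most members had lower levels in hippocampus, down to a median of 1.29 CPM for Egr2. The mean of the members also varied less there, with a standard deviation within genotypes of 0.122 against 0.396 in cortex. The part of counting noise in the lower r was not tested.

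**Figure D4:**
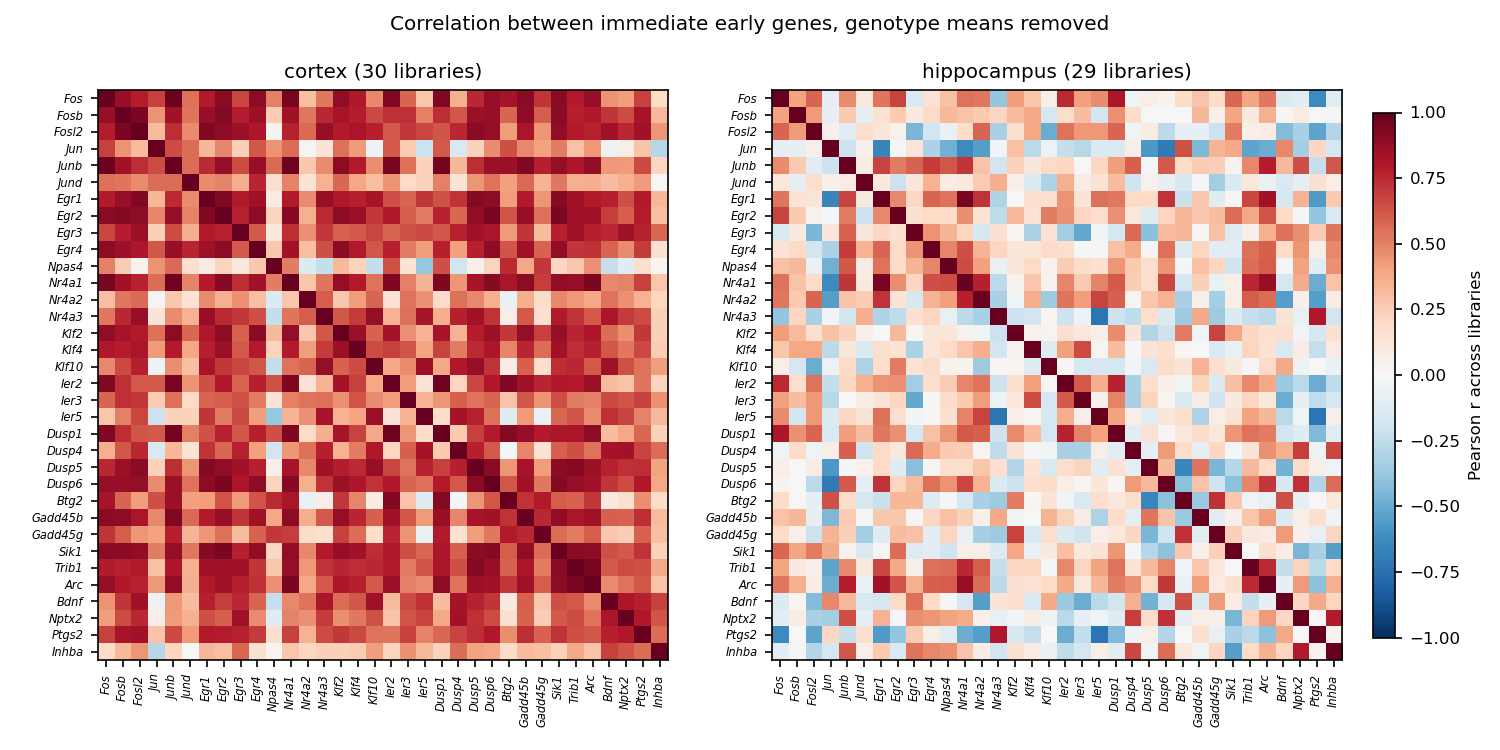
Pearson r between each pair of the 34 genes across 30 cortex libraries (left) and 29 hippocampus libraries (right), with genotype means removed and genes in the order of their roles. Red stands for positive and blue for negative r. The cortex panel is mostly red (545 of 561 pairs above 0), with the lowest pair Npas4 and Ier5 at -0.377 and a median of 0.628, and the hippocampus panel is mixed, with a median of 0.118.

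Fos was then set against every gene tested in the tissue, a test chosen after values were seen. In cortex 22 of the 33 other members correlated with Fos at an adjusted p under 0.05 (permutation test within genotypes, two-sided, Benjamini-Hochberg over 20393 genes), where 0.642% of all genes did. Fos with Junb had r = 0.981 and Spearman's rho = 0.968 (permutation p = 1e-05 for both, the smallest that the permutations can give, adjusted p = 0.0035), and r = 0.975 without the 2 libraries farthest from the median of Fos. The genes of the printed promoters had r = 0.924 for Dusp1, 0.826 for Btg2 and 0.754 for Dusp5 with Fos in cortex. The windows of Btg2 and Dusp5 were chosen after values were seen. Of the other members with TGACG, Fosb, Junb, Egr2, Egr4, Nr4a1, Klf2 and Klf4 passed. Npas4 (0.504), Nr4a2 (0.298), Nr4a3 (0.525) and Bdnf (0.446) did not. Of the members searched that lacked TGACG, Fosl2, Jun, Dusp6, Gadd45b, Gadd45g and Ptgs2 passed, and Jund, Ier3, Ier5 and Inhba did not. Members thus passed both with and without the word. A link between promoter words and these correlations was not tested. The 11 members that did not pass were Jund, Npas4, Nr4a2, Nr4a3, Klf10, Ier3, Ier5, Dusp4, Bdnf, Nptx2 and Inhba, with r from 0.182 to 0.584. Without cortex wild type replicate 3, 19 of 33 passed, and 19 of 33 without the 6 animals. In hippocampus 0 of 33 passed (permutation test, 0% of 20161 genes). Over that many genes the smallest permutation p of 1e-05 passes only if several genes reach it together. This 0 is therefore limited by the number of permutations, and it does not show that no member followed Fos in hippocampus. Dusp1 had the highest r there, 0.805 (rho = 0.677, permutation p = 3e-05 and 0.00036, adjusted p = 0.151), and 0.632 without the 2 farthest libraries.

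Animals with more Fos in cortex also had more Fos in hippocampus. Over the 29 animals with both tissues, genotype means removed, 2 of 34 members correlated between tissues at an adjusted p under 0.05 (permutation test within genotypes, two-sided, Benjamini-Hochberg over 19463 genes), where 1.15% of all genes did. Fos had r = 0.692 (permutation p = 5e-05, adjusted p = 0.0100) and rho = 0.701 (permutation p = 0.00011), and r = 0.657 without the 2 animals farthest from the median in cortex. Sik1 had r = 0.729 (permutation p = 7e-05, adjusted p = 0.0126) and rho = 0.633 (permutation p = 0.00057), and r = 0.650 without 2 animals. Without the animal of cortex wild type replicate 3, Fos passed the same permutation test (r = 0.653, adjusted p = 0.0387) and Sik1 did not (r = 0.634, adjusted p = 0.0594). The 2 tissues of an animal share the animal and its handling, and which shared condition underlies the correlation was not tested.

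Other members were less alike between tissues, and some not at all. Egr2 (r = 0.644, adjusted p = 0.0952), Npas4 (0.618, adjusted p = 0.0734), Dusp1 (0.604, adjusted p = 0.0904), Klf10 (0.569, adjusted p = 0.156) and Fosb (0.534, adjusted p = 0.168) missed the threshold in the same permutation test. The values were near 0 for Egr1 (-0.036), Egr4 (0.042) and Nr4a2 (-0.058). They were below 0 for Nptx2 (-0.303), Nr4a3 (-0.242), Dusp6 (-0.229) and Bdnf (-0.152). The median over the members was 0.201 and 23 of 34 were above 0, against a median of 0.108 and 68.3% above 0 over all genes. The mean of all 34 members in cortex and in hippocampus had r = 0.323 and rho = 0.374 across the animals, as a description.

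**Figure D5:**
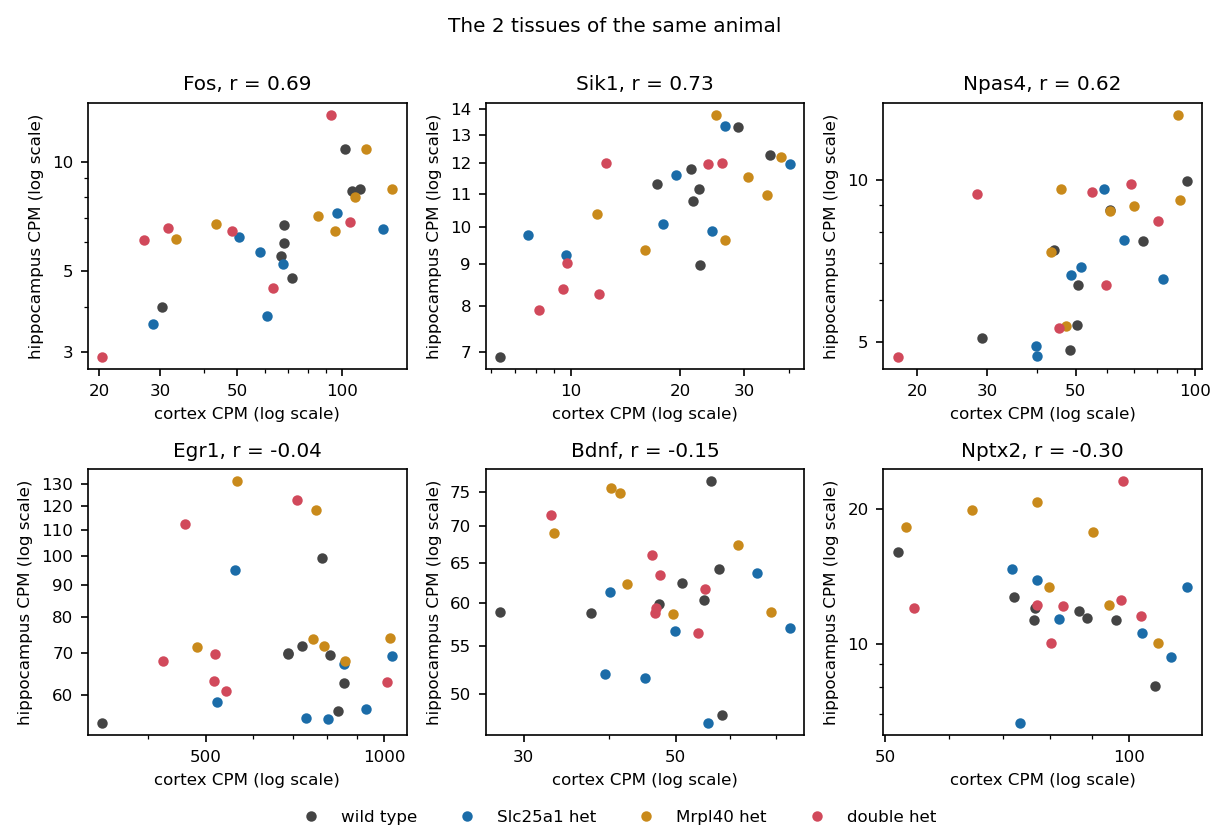
CPM in cortex (horizontal axes, log scale) and hippocampus (vertical axes, log scale) of the 29 animals with both tissues for 6 members, coloured by labelled genotype. The r above each panel is computed on log2 values with genotype means removed. Fos (r = 0.692) and Sik1 (r = 0.729) passed the test, Npas4 (r = 0.618) did not, and Egr1 had an r of -0.036.

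The genes outside the 34 whose levels ran most like their mean were ranked by Pearson r averaged over the 2 tissues, with 30 cortex and 29 hippocampus libraries. Midn came first (0.886 in cortex, 0.70 in hippocampus), followed by 1700016P03Rik (0.953 and 0.621), Otud1 (0.814 and 0.652) and Rel (0.828 and 0.565). A gene without a symbol in the table, Per1 (0.935 and 0.433), Siah2 (0.851 and 0.501) and Cyr61 (0.775 and 0.574) completed the first 8. Rel encodes a subunit of NF-κB and Per1 a component of the circadian clock. In all 8 the cortical value exceeded the hippocampal one.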

How the data were processed

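Poly(A) RNA was sequenced from cortex and hippocampus (59 libraries, 30 mice, stranded kit per the labels' protocols). Per the submitters' processing notes FastQC, HISAT2, featureCounts and DESeq2 were used with GRCm39 (mm39). Their versions and settings are not given in the sources. The deposited raw counts (reads per gene) were tested. The deposited normalized signal, which served as an alternative scale, equals the raw count divided by 1 factor per library (0.783 to 1.19).

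Counts were fitted with edgeR 4.0.16 in R 4.3.3 (TMM scaling, filterByExpr with a minimum count of 10, robust quasi-likelihood test, Benjamini-Hochberg over all genes tested, threshold 0.05). Each tissue was fitted with all 4 genotypes, and the tissue comparison with the animal as a block. Animal identifiers come from the labels, and deviations of the 2 tissues of an animal had a median r of 0.0722 over 19463 genes (29 animals). Standard errors are the log2 fold change divided by the square root of F. Levels are CPM with TMM scaling. Correlations used log2 CPM (prior count 2) with genotype means removed and 100000 permutations within genotype. DESeq2 1.42.0 was an alternative.

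All members are named. Library ranges are given always for 11 of them, and from the other lists up to 4 genes by p. Members and lists were chosen with earlier results of these data known. The Fos correlations and the alternatives that leave out libraries were chosen after seeing the data. Labels name separate animals, so p-values of genotype comparisons within a tissue measure the spread between animals. With the animal as a block, p-values rest on how the difference between the tissues of an animal varied between animals. Permutation p-values give how often shuffled libraries had a correlation as strong. Promoters came from RefSeq GRCm38.p6 and exon lengths from GENCODE, neither of the build of the counts, so coordinates apply to that sequence only. On simulated data the test recovered 47%, 69.7% and 93.9% of genes changed 1.2, 1.5 and 2-fold between cortex double het and wild type, among 20215 genes. For tissue, the shares were 60%, 87.9% and 98.4% among 20959 genes. No column was left out.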

Additional observations from a re-analysis of the deposited data

Results flagged for a closer look

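In 96 groups of 7 to 9 libraries examined for 1 value far from the rest, 11 had one (chance alone marks about 1 in 20 groups). The mean deviation of the members was -0.93 in cortex wild type replicate 3, and the next value was 0.04. In the same library Egr1 stood at 335 CPM (next 687) and Klf2 at 3.25 CPM (next 6.02). Bdnf was low in cortex double het replicate 3, at 32.9 CPM (next 46.2).

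In hippocampus the separate values were all high. Egr1 was 99.3 CPM in wild type replicate 8 (next 71.8), and 95.0 CPM in Slc25a1 het replicate 1 (next 69.2), where Egr4 was 11.5 CPM (next 7.23). Dusp1 was 13.5 CPM in Mrpl40 het replicate 2 (next 11.0). In double het replicate 1, Fos was 13.4 CPM (next 6.82) and Dusp1 15.8 CPM (next 10.5). Nptx2 was 23.0 CPM in double het replicate 5 (next 12.5).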

How the results depend on the processing

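Counts of called members stayed equal or within 1.5 times under 110 alternatives and moved further under 4. Most of the 110 were counts of 0 that stayed 0, where a ratio has no meaning. With the replicate number as a block, 1 member was called in hippocampus Slc25a1 het and 1 in the hippocampal interaction (Jund in both), where 0 were called without it. The labels do not say whether libraries with the same replicate number share a condition, and this was not tested. Same-numbered libraries of different genotypes had a median r of 0.049 in cortex (14 of 42 pairs above 0.1), against -0.0021 for other numbers. In hippocampus the medians were 0.016 (11 of 39 pairs above 0.1) and 0.0052. In cortex 6 of 30 and in hippocampus 5 of 29 libraries correlated best with their own number. The block changed no other call. Correlated members between tissues numbered 5 with genotype means left in and 1 without wild type replicate 3 (Fos), against 2. With no filter on low counts, 0 members were above the 90th percentile of dispersion in cortex and 0 in hippocampus, and the cause was not tested. Nptx2 in cortex double het turned to -0.036 without the 6 animals and to -0.046 without wild type replicate 3. Among wild-type animals alone, Btg2 (-0.60, adjusted p = 0.0729) and Bdnf (0.35, adjusted p = 0.050) lost their edgeR call between tissues. For named genes 355 values kept their direction and side of the threshold, 2 turned, 1 gained a call (Jund with the block) and 2 lost one. The median of cortex double het ranged from -0.34 to -0.20 over 7 alternatives. The simulated recovery shares are for genes in general, whose spread between cortex libraries was below that of most members, and do not describe the power for these members.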
